A study of Mus musculus with 15 samples.

Results

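Chromatin accessibility was examined around the 8 genes of the endoderm and pancreas transcription factors Gata4, Gata6, Hnf4a, Hnf4g, Foxa1, Foxa2, Foxa3 and Pdx1. The genes were chosen by name, and every merged peak that overlapped one of them or lay within 50 kb of its gene record was taken, which gave 97 of the 67945 peaks. No peak was linked to more than 1 of the 8 genes. Of the 97 peaks, 10 were promoter peaks, 78 were distal peaks, and 9 lay at the start of another gene and were kept apart from both. A promoter peak lay within 1 kb of a listed transcription start. For Gata4, Gata6 and Hnf4g, which had no listed start, either end of the gene record was used instead. Accessibility was read by ATAC-seq, in which a transposase cuts open DNA more often than packed DNA, in tumour cells sorted from untreated tumours. The tumours were grown for 3 weeks under the skin of C57BL/6 mice, each from a different pancreatic tumour cell clone, and 50000 tumour cells were sorted for each library. The labels class the clones by the T cell content of their tumours. The 6 T cell high clones were, in the order used below, 2838c3, 6421c2 and 6499c4, then 6555c3 and 6620c1, and last 7160c2. Those labelled T cell low were, likewise in order, 2699c4, 6419c1 and 6419c5, followed by 6422c1, 6499c3, 6556c3 and 6694c2. The sources used here do not give the driver alleles of the clones, the gate used for sorting or the age of the mice, and each library stands for 1 clone.

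The GATA and FOXA proteins bind DNA in closed chromatin and help to open it during the formation of the gut tube, liver and pancreas. HNF4A and its relative HNF4G are nuclear receptors that maintain gene expression in liver, gut and pancreatic epithelium. PDX1 is a homeobox factor needed to form the pancreas and, later, for beta cell function. In pancreatic cancer, GATA6 and HNF4A are known for their high expression in the classical, more epithelial tumour subtype.

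Total counts in peaks ran from 968296 in 7160c2 to 7369228 in 6419c1. Levels are given as CPM, counts per 1000000 of the TMM-scaled library size. The 11 epithelial and duct marker genes all had a promoter peak, with a summed promoter level of 264.7 to 446.7 CPM over the T cell high clones and 277.5 to 407.5 CPM over the T cell low ones. A promoter peak was present at 4 of 11 acinar, 1 of 9 islet, 4 of 11 leukocyte, 2 of 8 fibroblast and 0 of 6 endothelial marker genes. The summed level of the leukocyte markers was 24.2 to 63.8 CPM over the T cell high clones and 45.7 to 83.9 CPM over the T cell low ones. Most of the difference came from Cd53, with 28.1 CPM on average in T cell high and 43.0 CPM in T cell low clones, while Ptprc had 10.3 and 10.2 CPM and 2 of the 4 promoters had a fold change above 0. The part of leukocyte DNA in the values below was not tested. Among the epithelial markers, Epcam, which encodes an epithelial adhesion molecule, differed most, with 50.03 CPM in T cell high and 19.9 CPM in T cell low clones (log2 fold change 1.35, SE 0.39, unadjusted p = 0.0020, adjusted p = 0.681 in edgeR). The distal sums of Epcam and of Cldn4, a claudin of tight junctions, had log2 fold changes of 0.57 and 0.64 (unadjusted p = 0.0076 and 0.016, adjusted p = 0.451 and 0.488 in edgeR). They were the only 2 of the 11 epithelial distal sums with an unadjusted p under 0.05, against 4.73% of all genes higher at that threshold. Of the 11 distal sums 6 had a fold change above 0, against 50% of all genes, with a median of 0.09. Of the 11 promoters 8 were above 0, against 49.9% of all genes. The part of these differences in the values below was not tested.

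The promoter sequences of 2 of the genes are printed to place the peaks described below, with motif matches marked. Binding to these matches was not tested. Hnf4a, on the plus strand, had 2 listed starts. The upstream start is the one known from pancreatic cells and the downstream start the one known from adult liver. The promoter peak of Hnf4a, chr2:163506389-163507448, covered the upstream start, whereas the downstream start had 0 peaks within 1 kb and its nearest linked peak was 5322 bp away. Pdx1, also on the plus strand, had 1 listed start inside a promoter peak. The sequences are from RefSeq, build GRCm38.p6, which mm10 represents. They are written 5′ to 3′ on the strand of the gene and end at the base before the gene record or start. Capitals mark matches to the motifs searched.
Hnf4a upstream start, chr2:163506607-163506810: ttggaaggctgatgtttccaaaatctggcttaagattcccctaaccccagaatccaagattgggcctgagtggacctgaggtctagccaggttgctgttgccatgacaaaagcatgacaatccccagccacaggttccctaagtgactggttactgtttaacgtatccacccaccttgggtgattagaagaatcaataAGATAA
Hnf4a downstream start, chr2:163546905-163547154: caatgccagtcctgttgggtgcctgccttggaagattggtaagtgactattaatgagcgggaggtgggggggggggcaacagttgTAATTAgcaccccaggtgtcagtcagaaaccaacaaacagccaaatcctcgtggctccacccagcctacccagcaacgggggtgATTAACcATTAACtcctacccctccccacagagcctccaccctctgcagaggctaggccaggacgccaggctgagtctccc
Pdx1 start, chr5:147269847-147270096: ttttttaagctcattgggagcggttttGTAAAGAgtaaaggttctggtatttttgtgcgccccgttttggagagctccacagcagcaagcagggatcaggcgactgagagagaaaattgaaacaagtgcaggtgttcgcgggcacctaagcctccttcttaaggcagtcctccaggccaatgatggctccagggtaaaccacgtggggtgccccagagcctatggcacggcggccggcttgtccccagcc
The motifs were searched on both strands. The FOXA motif was TNTTTAC and the GATA motif was NGATAA. The HNF1 core was GTTAAT, which is also part of the full HNF1 motif, searched as a pair of cores facing each other around 1 base. The HNF4 motif was CAAAGTCC and the homeobox core was TAATTA. The Hnf4a upstream window held 1 match to the GATA motif, 52 to 47 bases before the start. The Hnf4a downstream window held a pair of HNF1 cores, read on the other strand as ATTAAC, from 81 to 76 and from 74 to 69 bases before the start, and a homeobox core further upstream. Both cores faced the same way and did not form the full HNF1 motif. The Pdx1 window held a FOXA match, GTAAAGA, 223 to 217 bases before the start. Among 32851 mouse promoter windows of 250 bp, 10.9% held a FOXA, 22.5% a GATA, 6.43% an HNF1 core, 0.00913% the full HNF1 motif, 1.2% an HNF4 and 4.84% a homeobox match, so single FOXA or GATA matches are common. Promoter entries matched 5 of the 8 genes. For Gata4, Gata6 and Hnf4g both ends of the gene record stood in for the start.

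The main comparison asks whether chromatin at these genes differs between clones that form T cell high and T cell low tumours. None of the 83 member peaks with enough counts to be tested passed an adjusted p of 0.05 in edgeR's quasi-likelihood test with Benjamini-Hochberg adjustment, where the background was 0.0% of 59252 peaks called. DESeq2 likewise called 0 of the member peaks, promoters and distal sums. Over all genes it called 27 of 16532 distal sums, and its shares over all peaks and promoters are not reported here. Each library pools many cells, so fewer cells with an open site and less opening per cell cannot be told apart. At an unadjusted p under 0.05 there were 3 of 83 peaks, or 3.61%, against 6.83% of all tested peaks, a share that is not above the background. All 3 were higher in T cell high clones, where 3.86% of all tested peaks were higher and 2.96% lower at that threshold, and 2 of the 3 lay at the starts of other genes. The other 14 linked peaks, all distal, were too low to be tested. Fold changes are given throughout as log2 of T cell high over T cell low. Over the tested member peaks they ran from -0.58 to 1.43 with a median of 0.12, against a median of 0.01 over all tested peaks. A value above 0 was found at 57 of 83 member peaks, against 51.3% of all tested peaks. The clone ranges of the groups overlapped at every one of the 83 peaks; over all tested peaks 0.162% did not overlap.

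**Figure D1:**
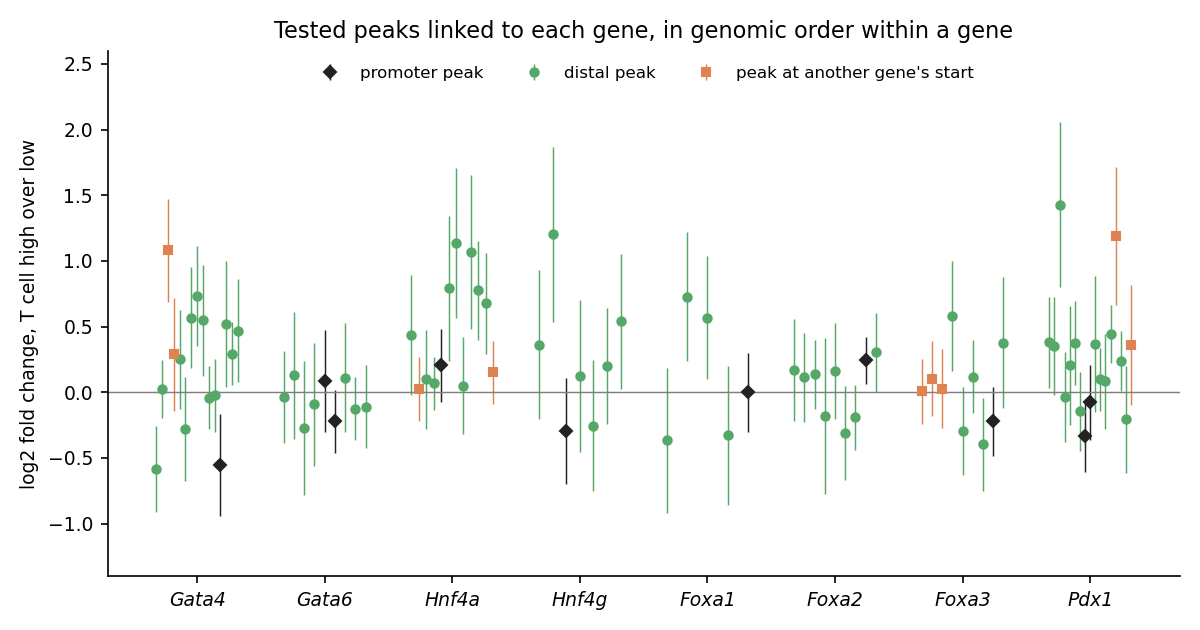
Each point is 1 of the 83 tested peaks linked to the 8 genes, in genomic order within a gene, with its edgeR log2 fold change of T cell high (6 clones) over T cell low (7 clones) on the vertical axis and a line of ± 1 standard error. Points lie from -0.58 to 1.43, and all 12 tested peaks of Hnf4a lie above 0.

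At the promoters, 0 of 8 genes passed the adjusted test, with a background of 0.0% of 12304 genes called, and only the Foxa2 promoter had an unadjusted p under 0.05, against 6.05% of all genes (3.23% higher and 2.82% lower in T cell high). The fold change was above 0 at 3 of 8 promoters, against 49.9% of all genes. For the sums of each gene's distal peaks, 0 of 8 genes passed, with 0.00602% of 16610 genes called, and 0 of 8 had an unadjusted p under 0.05, against 8.8% of all genes; with DESeq2 this last count was 1, Hnf4a. The distal sum was above 0 for 7 of 8 genes, against 50% of all genes. The clone ranges of the groups overlapped at all 8 promoters and all 8 distal sums, where 0.13% of all promoters and 0.271% of all distal sums did not overlap.

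**Figure D2:**
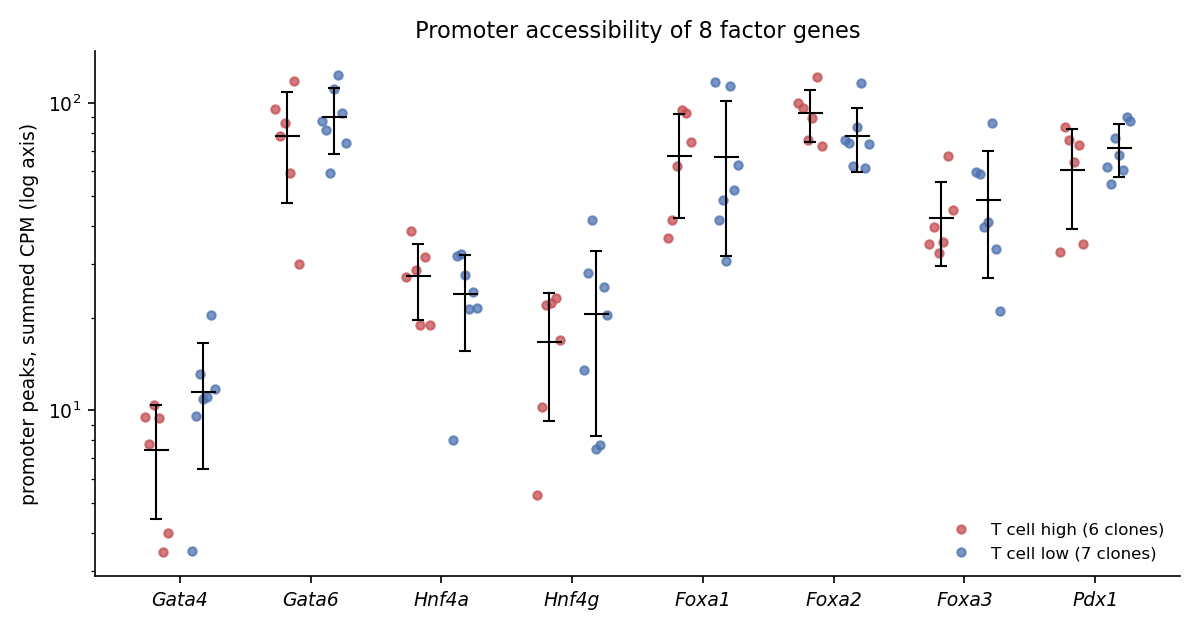
Promoter accessibility of the 8 genes in each clone, as CPM summed over promoter peaks on a log axis. Points are clones, horizontal lines are group means and bars are ± 1 SD (n = 6 T cell high, n = 7 T cell low); the groups overlap at every gene, and the lowest Gata6 point is 29.9 CPM in the T cell high clone 7160c2.

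Gata4, which acts in the early foregut and the heart, had 18 linked peaks around its record at chr14:63198914-63271712. Its peak at the record end ran from 3.5 to 10.4 CPM in T cell high clones, with a median of 8.6. In T cell low clones it ran from 3.5 in 2699c4 to 20.5 in 6556c3, with a median of 11.1. The means were 7.44 ± 3.01 (SD, n = 6) and 11.5 ± 5.05 CPM (SD, n = 7). In the promoter fit the log2 fold change was -0.53 (SE 0.39, adjusted p = 0.887 in edgeR). Counts there were 4 to 67 reads per library, and the difference was within the spread between clones. A stronger peak lay inside the record, chr14:63245013-63246287, and was classed as distal by the rule. It was open in every clone, from 20.9 CPM in 6419c5 to 56.3 CPM in 6499c3, with 36.5 ± 11.1 CPM in T cell high and 38.0 ± 11.6 CPM in T cell low clones. Where Gata4 transcripts start within the record was not analysed here, so the peak at the record end may not mark the start in use. Every promoter value of Gata4 in the counts, figures and correlations is that of this record-end peak.

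The strongest peak near Gata4, chr14:63177545-63178662, lay before the start of the record, with its centre 20.8 kb away. It had 54.2 ± 11.9 CPM in T cell high and 53.05 ± 15.96 CPM in T cell low clones, with the lowest level, 24.2 CPM, in 6419c5. Its log2 fold change was 0.02 (SE 0.22), and the groups were indistinguishable in the data. The smallest p among the distal peaks of Gata4 was at chr14:63232438-63233122, inside the record, with 8.59 ± 1.54 CPM in T cell high and 5.24 ± 2.68 CPM in T cell low clones (log2 fold change 0.73, SE 0.38, adjusted p = 0.749 in edgeR). The distal peak of Gata4 that varied most among clones, chr14:63281778-63282253, reached 20.1 CPM in 2838c3 and ran from 1.9 to 11.2 CPM elsewhere. Of the 15 distal peaks 12 were tested, 8 of them above 0, and the distal sum of Gata4 had a log2 fold change of 0.01 (SE 0.17).

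The smallest p of all the linked peaks came from chr14:63193250-63194005, a peak linked to Gata4 that lies at the start of Neil2, a DNA repair glycosylase gene. Its levels were 9.0, 5.9, 10.8, 9.5, 8.6 and 8.0 CPM in the T cell high clones in the order given above. In the T cell low clones they were 1.0, 5.1, 3.3, 6.8, 3.4, 3.7 and 4.9 CPM. The groups overlapped through 6421c2, the lowest T cell high clone, and 6422c1, the highest T cell low clone. The log2 fold change was 1.08 (SE 0.39, unadjusted p = 0.012, adjusted p = 0.651 in edgeR). A neighbouring peak at the same gene start had a log2 fold change of 0.29 (SE 0.43).

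Gata6, which is required with Gata4 for pancreas formation, had 2 promoter peaks, chr18:11052067-11053468 and a smaller neighbour, by its record at chr18:11052510-11085636. The summed promoter level ran from 29.9 in 7160c2 to 118.3 CPM in 6620c1 among T cell high clones, with a median of 82.6. Among T cell low clones it ran from 59.4 in 6419c5 to 124.0 CPM in 6499c3, with a median of 87.4. The lowest level thus fell in the shallowest library, in which it rested on 30 reads. Between the groups the log2 fold change was -0.11 (SE 0.22, adjusted p = 0.974 in edgeR).

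The strongest distal peak of Gata6, chr18:11100650-11101381, lay 15.4 kb beyond the record. It was among the steadiest of the linked peaks, from 13.8 to 29.9 CPM, with an SD of log2 CPM of 0.30, at percentile 3.77 of all tested peaks. On the other side of the gene, 2 peaks varied widely. The peak chr18:11035164-11035853 ran from 0.9 CPM in 6555c3 to 25.5 CPM in 6421c2, with 3.7 CPM in 6556c3 (SD of log2 CPM 1.13, percentile 91.6). The peak chr18:11015615-11016455 ran from 2.6 CPM in 6555c3 to 39.97 CPM in 2838c3 and stood at 4.0 CPM in 7160c2. Both had high and low clones in each group, with log2 fold changes of -0.09 (SE 0.47) and 0.13 (SE 0.48). The distal peak with the smallest p, chr18:11021114-11021606, had an unadjusted p of 0.595. The distal sum of Gata6 was lowest in 6555c3, at 43.9 CPM, and 68.8 CPM in 7160c2, and lay between 85.8 and 127.9 CPM in the other clones.

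Foxa1, a pioneer factor of gut and pancreatic epithelium, differed widely among clones but not by group. Its 1 promoter peak, chr12:57544937-57547122, ran from 36.5 in 2838c3 to 95.0 CPM in 6555c3 among T cell high clones. Among T cell low clones it ran from 30.6 in 6422c1 to 117 CPM in 2699c4, with 114 CPM in 6499c3. The group means, 67.3 ± 25.0 (SD, n = 6) and 66.7 ± 34.8 CPM (SD, n = 7), nearly coincided, with a log2 fold change of the promoter sum of 0.11 (SE 0.27, adjusted p = 0.979 in edgeR). The sign of this value was not stable: leaving out 1 library in turn gave -0.05 to 0.27.

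All 4 distal peaks of Foxa1 lay downstream of the gene, which is on the minus strand. The peak chr12:57532204-57533001, 13.5 kb from the start, had 15.9, 19.9 and 13.96 CPM in the T cell high clones 6555c3, 6620c1 and 7160c2, and 16.4 and 17.8 CPM in the T cell low clones 2699c4 and 6499c3. In 6421c2, 6419c1, 6419c5 and 6422c1 it had 2.5, 3.3, 4.9 and 3.4 CPM. The clones with the highest promoter level were thus also the ones with the highest level here. The next peak, chr12:57534642-57535555, ran from 2.7 CPM in 6422c1 to 26.5 CPM in 6499c3 and had the largest SD among the distal peaks of Foxa1 (0.99, percentile 83.8). The smallest p was at chr12:57515488-57516346, with 7.64 ± 4.73 CPM in T cell high and 4.53 ± 2.56 CPM in T cell low clones (log2 fold change 0.73, SE 0.49, adjusted p = 0.818 in edgeR).

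Foxa2, which works with Foxa1 in the specification of foregut endoderm and is essential for its formation, had the steadiest promoter of the 8. The peak chr2:148045043-148047221 covered all 3 listed starts, and its SD of log2 CPM over the 13 clones was 0.31, at percentile 17.9 of all genes. The level ran from 72.8 to 121.8 CPM in T cell high clones, with a median of 93.4. In T cell low clones it ran from 61.6 to 116.3 CPM, with a median of 74.1. The highest T cell low clone, 6499c3, lay above 5 of the 6 T cell high clones. In the promoter fit the log2 fold change was 0.32 (SE 0.15, unadjusted p = 0.0487, adjusted p = 0.815 in edgeR). With the level of the surrounding region as an offset it was 0.18 with an unadjusted p of 0.147, and without 6620c1 it was 0.20 with an unadjusted p of 0.204. As a single peak in the fit over peaks it was 0.24 (SE 0.18).

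Downstream of Foxa2 lay the peak chr2:148012976-148014416, 31.8 kb from the start, with 50.6 ± 22.7 CPM in T cell high and 46.4 ± 14.04 CPM in T cell low clones. It was highest in 2838c3, at 78.3 CPM, and lowest in 7160c2, at 19.9 CPM, both T cell high. The peak chr2:148004650-148005723 had 37.4 CPM on average and ran from 8.4 CPM in 2699c4 to 61.1 CPM in 6555c3. The peak nearest to the promoter, chr2:148048506-148049016, had the smallest p among the distal peaks (log2 fold change 0.30, SE 0.30, unadjusted p = 0.320). The peak with the largest SD, chr2:148021955-148022458, had 0 reads in 6555c3 and reached 10.996 CPM in 6419c5 (SD of log2 CPM 1.19, percentile 94.1). The distal sum of Foxa2 had a log2 fold change of 0.05 (SE 0.19).

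Foxa3, the family member best known from liver, shared its promoter peak, chr7:19023266-19024871, with the start of the neighbouring gene Sympk, so the level cannot be assigned to either gene. It ran from 32.7 to 67.4 CPM in T cell high clones and from 21.0 to 86.5 CPM in T cell low clones, with medians of 37.3 and 41.1. The highest clones were 6499c3 and 6620c1 and the lowest 6694c2. Here the log2 fold change was -0.12 (SE 0.23, adjusted p = 0.971 in edgeR), and without 6499c3 it was 0.01. The 5 distal peaks together were steadier than those of most genes, from 36.4 to 65.4 CPM, with an SD of log2 CPM of 0.23, at percentile 4.23 of all genes. Among them, chr7:19010560-19011075 was the strongest, at 18.3 CPM on average and a log2 fold change of 0.12 (SE 0.28). The distal peak with the smallest p, chr7:19006572-19006821, had a log2 fold change of 0.58 (SE 0.42, unadjusted p = 0.177), with 17.95 CPM in 7160c2 and 1.2 CPM in 6694c2. The one with the largest SD, chr7:19044481-19045080, was below 10 CPM in every clone.

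Hnf4a had peaks on both sides of its record at chr2:163506811-163572907, and all 12 of its tested peaks had a fold change above 0, as did 51.3% of all tested peaks. The promoter peak at the upstream start ran from 18.9 to 38.5 CPM in T cell high clones, with a median of 28.0. In T cell low clones it ran from 8.0 in 2699c4 to 32.4 CPM in 6419c5, with a median of 24.3. Apart from 2699c4, in which it was lowest with 23 reads, the groups covered a similar range. For the Hnf4a promoter the log2 ratio was 0.25 (SE 0.28) with an adjusted p of 0.932 in edgeR. Neighbouring peaks share the DNA dosage and openness of their region, so the 12 peaks are not 12 independent measurements.

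The strongest distal peak of Hnf4a, chr2:163493321-163494719, lay 12.8 kb upstream of the upstream start and was open in every clone, from 31.9 to 69.5 CPM. Its level was 48.3 ± 14.1 CPM in T cell high and 46.4 ± 8.61 CPM in T cell low clones, with an edgeR log2 fold change of 0.07 (SE 0.20). Larger fold changes came from weaker peaks within and beyond the record. The intragenic peak chr2:163552477-163553153, 5660 bp downstream of the second start, had 0.5, 6.5, 10.3, 6.9, 5.2 and 19.9 CPM in the T cell high clones. It had 2.4, 1.6, 6.6, 2.7, 1.7, 7.5 and 4.3 CPM in the T cell low clones (log2 fold change 1.14, SE 0.57, adjusted p = 0.740 in edgeR). The clone 2838c3 had the lowest level of the 13, and the remaining T cell high clones were at or above 5.2 CPM.

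The distal peak of Hnf4a with the smallest p, chr2:163590222-163591286, had 9.5 to 12.8 CPM in T cell high clones. In T cell low clones it had 2.9 to 7.5 CPM apart from 6419c5, which reached 14.8 CPM. This peak had a log2 fold change of 0.77 (SE 0.38, unadjusted p = 0.052, adjusted p = 0.733 in edgeR). The peak with the largest SD, chr2:163580061-163580832, separated clones within both groups: 6421c2, 6499c4, 6555c3 and 6620c1 had 12.95 to 26.4 CPM, 6419c5 had 29.1 CPM, and the other clones had 1.6 to 6.3 CPM (SD of log2 CPM 1.32, percentile 97.3). Its log2 fold change was 1.07 (SE 0.58, unadjusted p = 0.081) and rose to 1.95 without 6419c5. The other clone of the same number, 6419c1, had 6.3 CPM at this peak.

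Summed over distal peaks, Hnf4a had 123.3 to 175.0 CPM in T cell high clones, with a median of 144.6. In T cell low clones it had 82.1 to 167.1 CPM, with a median of 115.3, and only 6419c5 exceeded 126.0 CPM. The means were 148 ± 22.7 (SD, n = 6) and 116 ± 27.1 CPM (SD, n = 7), and the log2 fold change was 0.33 (SE 0.16, unadjusted p = 0.0509, adjusted p = 0.569 in edgeR). Under every alternative tried the value stayed above 0, from 0.26 to 0.44, and the adjusted p stayed above 0.05. The highest fold change came from leaving out 6419c5.

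**Figure D3:**
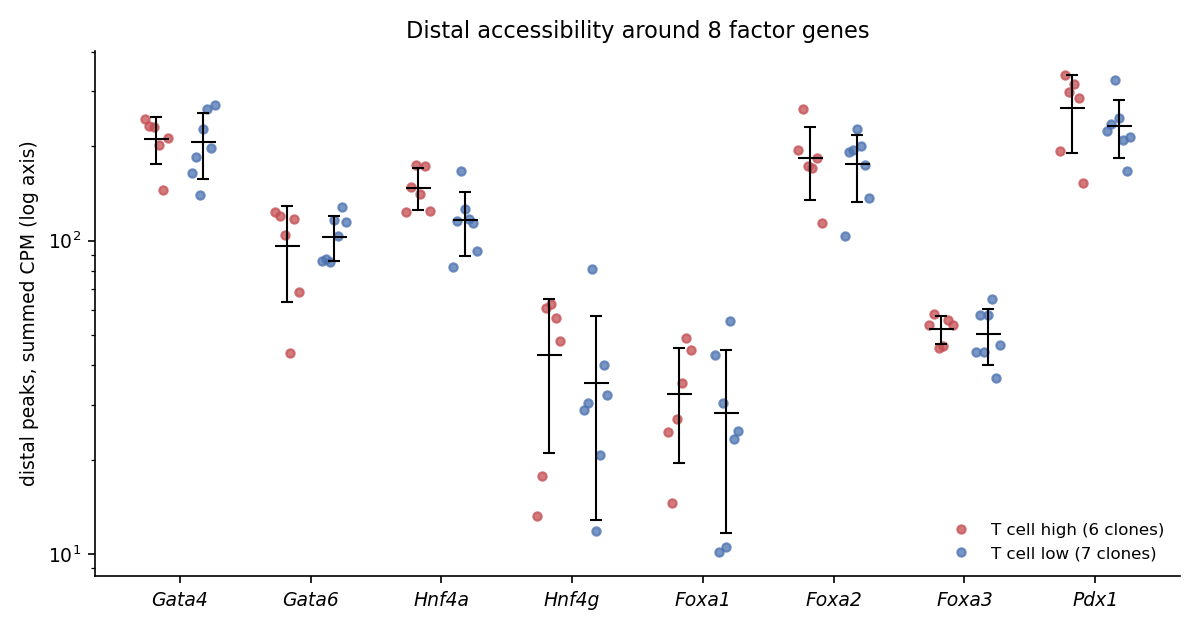
Distal accessibility of the 8 genes in each clone, as CPM summed over distal peaks on a log axis. Points are clones, horizontal lines are group means and bars are ± 1 SD; for Hnf4a the T cell high clones lie at 123.3 to 175.0 CPM and the T cell low clones at 82.1 to 167.1 CPM.

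Hnf4g, the paralogue of Hnf4a found in gut and pancreas, was the most variable of the 8 genes at both kinds of peak. Its promoter peak, chr3:3507342-3508668, ran from 5.3 in 2838c3 to 23.3 CPM in 6620c1 among T cell high clones, with a median of 19.5. Among T cell low clones it ran from 7.5 in 6422c1 to 41.8 CPM in 6419c5, with a median of 20.4. The SD of log2 CPM was 0.83, at percentile 92.2 of all genes, and that of the distal sum was 0.87, at percentile 93.0. The log2 fold change of the promoter was -0.26 (SE 0.41, adjusted p = 0.963 in edgeR), and it was 0.06 without 6419c5.

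The strongest distal peak of Hnf4g, chr3:3613333-3614107 inside the record, had 10.3 ± 6.24 CPM in T cell high and 8.59 ± 4.28 CPM in T cell low clones. The peak chr3:3503504-3503964, 4.3 kb from the promoter end of the record, had both the smallest p and the largest SD. It stood at 13.1, 16.3, 9.5 and 10.996 CPM in 6499c4, 6555c3, 6620c1 and 6419c5, at 5.6 CPM in 6556c3 and 6694c2, and at or below 3.1 CPM in the other 7 clones (log2 fold change 1.202, SE 0.67, adjusted p = 0.773 in edgeR). The first 4 of these clones were also among the highest at the variable Hnf4a peak described above. The distal sum of Hnf4g ran from 11.9 to 81.4 CPM, and its log2 fold change was 0.30 (SE 0.37).

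Pdx1 had 2 promoter peaks by its record at chr5:147270097-147275848. The peak over the start, chr5:147269849-147270537, had 26.1 to 44.7 CPM in 11 of the clones, and 10.3 CPM in 2838c3 and 12.96 CPM in 7160c2, both T cell high. The peak centred at -1462 bp from the start, chr5:147268076-147269194, was highest in the T cell low clones 6556c3 and 6694c2, at 64.4 and 52.5 CPM (log2 fold change -0.34, SE 0.27). Together they ran from 32.8 to 83.5 CPM in T cell high and from 54.7 to 90.5 CPM in T cell low clones, with medians of 69.0 and 67.9. The log2 fold change was -0.17 (SE 0.23, adjusted p = 0.951 in edgeR).

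Around Pdx1 the strongest distal peak, chr5:147291818-147293636, lay 22.6 kb downstream of the start with 81.1 CPM on average. It ran from 32.9 CPM in 7160c2 to 110.5 CPM in 6419c5 and had a log2 fold change of 0.10 (SE 0.24). A second downstream peak, chr5:147299021-147300220, had 44.0 ± 15.5 CPM in T cell high and 32.5 ± 5.10 CPM in T cell low clones (log2 fold change 0.44, SE 0.22, unadjusted p = 0.057). The distal peak with the smallest p and the largest SD was upstream, chr5:147243965-147244332. It had 4.5, 5.3, 1.8, 6.9, 11.2 and 9.97 CPM in the T cell high clones, and 4.5, 0.1, 1.1, 2.0, 2.7, 0.0 and 6.2 CPM in the T cell low clones (log2 fold change 1.43, SE 0.63, unadjusted p = 0.033, adjusted p = 0.711 in edgeR). The T cell low clones 2699c4, 6422c1, 6499c3 and 6694c2 lay within the T cell high range.

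The start of Cdx2, a homeobox gene of intestinal epithelium, lies within 50 kb of Pdx1, and its peak chr5:147306366-147307584 was the most variable of all the linked peaks (SD of log2 CPM 1.49, percentile 99.2). In the T cell high clones it had 5.0, 36.6, 43.8, 29.7, 34.1 and 15.96 CPM. In the T cell low clones it had 14.3, 14.7, 30.2, 1.4, 1.3, 13.1 and 11.7 CPM. The level was above 25 CPM in 6421c2, 6499c4, 6555c3, 6620c1 and 6419c5, and below 2 CPM in 6422c1 and 6499c3. The log2 fold change was 1.19 (SE 0.52, unadjusted p = 0.034, adjusted p = 0.711 in edgeR). The distal sum of Pdx1 itself ran from 152.6 to 338.7 CPM, and its log2 fold change was 0.17 (SE 0.18).

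Whether a gene's promoter and its distal peaks vary together was asked over all 13 clones. Foxa1 and Hnf4g showed the closest relation. For Foxa1, Pearson's r between log2 promoter and log2 distal level was 0.86 (permutation p = 0.00017, adjusted over 11309 genes p = 0.0136), and Spearman's rho was 0.84 (permutation p = 0.00053, adjusted p = 0.0413). For Hnf4g, r was 0.88 (permutation p = 0.00017, adjusted p = 0.0136) and rho was 0.79 (permutation p = 0.00203, adjusted p = 0.0611). Over all genes 6.79% were called by Pearson's r, and the median r was 0.34. Without the 2 clones farthest from the median promoter level, r was 0.82 for Foxa1 (permutation p = 0.00177, adjusted p = 0.111) and 0.79 for Hnf4g (permutation p = 0.00367, adjusted p = 0.146), and with these 11 clones 0 of 11309 genes were called.

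**Figure D4:**
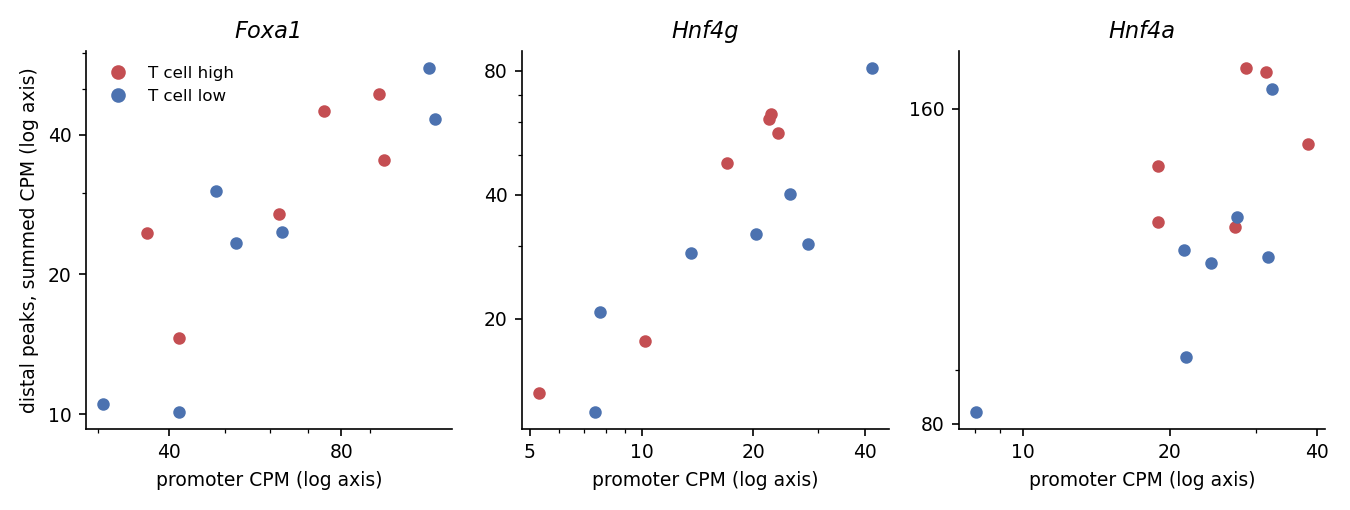
Promoter level against summed distal level in CPM, both on log axes, for Foxa1, Hnf4g and Hnf4a; each point is 1 of 13 clones. Pearson's r on the log2 scale is 0.86, 0.88 and 0.70, and both groups lie along each trend.

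For Hnf4a r was 0.70 (permutation p = 0.0055, adjusted p = 0.0626) and rho 0.55, and for Gata6 r was 0.62 (permutation p = 0.039, adjusted p = 0.169) and rho 0.59. The values of r for Foxa3, Pdx1, Foxa2 and Gata4 were 0.55, 0.49, 0.36 and 0.34, with adjusted permutation p values of 0.194, 0.266, 0.446 and 0.484 and rho values of 0.50, 0.37, 0.42 and 0.22. Without the 2 farthest clones r was 0.60 for Hnf4a, 0.42 for Gata6, 0.39 for Foxa3 and 0.36 for Foxa2. It was -0.03 for Pdx1 without 2838c3 and 7160c2, and -0.17 for Gata4 without 6620c1 and 2699c4. Leaving out the most extreme promoter levels narrows their range, and the median r over all genes also fell, from 0.34 to 0.27. Leaving out other clones was not tried for r, so its dependence on these clones in particular was not tested.

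The clones can differ in DNA copy number, which moves all peaks of a region. A regional level was therefore taken as the median log2 deviation of the tested peaks within 5 Mb of a gene and more than 50 kb from it. It rested on only 46 peaks for Hnf4g, against 153 to 411 for the other genes. The Foxa3 region stood at 0.68 in 6499c3, the clone with the highest Foxa3 promoter level. The Hnf4g region stood at 0.46 in 6419c5, where Hnf4g was highest, and at -0.66 in 6422c1, where its distal sum was lowest. It was highest, at 0.56, in 7160c2, whose Hnf4g promoter level of 16.95 CPM was below the median, and it was -0.07 in 2838c3, where that promoter was lowest. The Foxa1 region stood at 0.40 in both 2699c4 and 6499c3, the clones with the highest Foxa1 promoter level. The Foxa2 region stood at -0.46 in 2699c4 and the Gata6 region at -0.43 in 6555c3, the clones with the lowest distal sums of those genes. The Foxa2 promoter in 2699c4 had 76.2 CPM, the median of the clones. Where the Gata6 promoter was lowest, in 7160c2, its region stood at 0.03. Where the Foxa1 and Pdx1 promoters were lowest, in 6422c1 and 2838c3, their regions each stood at -0.05. The part of copy number in these levels was not tested.

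**Figure D5:**
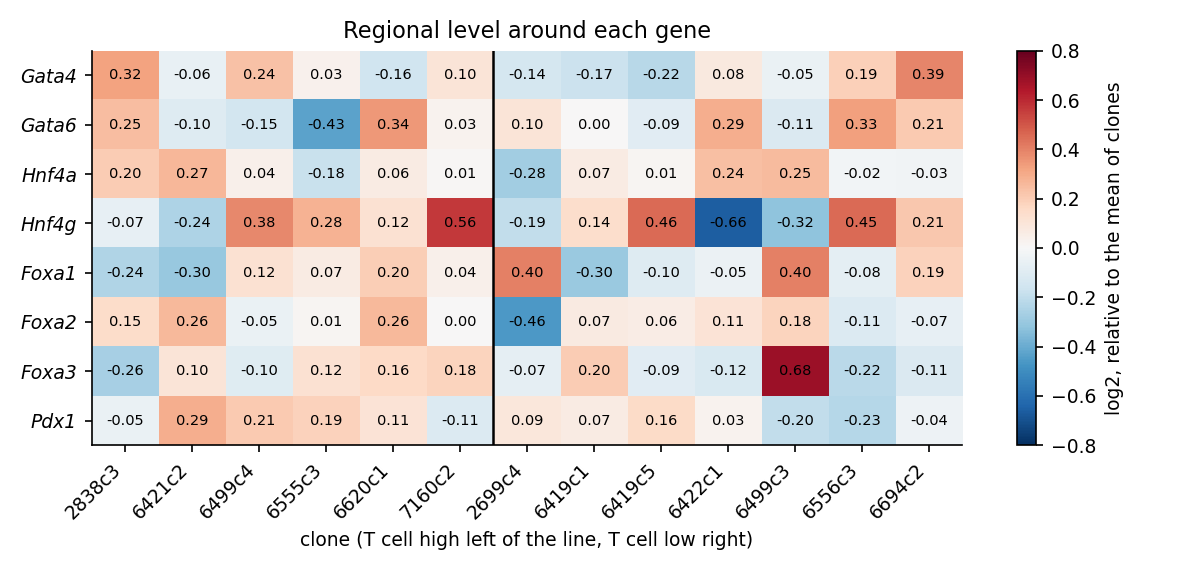
Regional level around each gene in each clone, as the median log2 deviation from the mean of clones over tested peaks within 5 Mb and more than 50 kb away. The highest value is 0.68 for Foxa3 in 6499c3 and the lowest is -0.66 for Hnf4g in 6422c1.

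With the regional level subtracted from both, r was 0.77 for Foxa1 (permutation p = 0.00187, adjusted p = 0.0967) and 0.76 for Hnf4g (permutation p = 0.00259, adjusted p = 0.109), against a median of 0.13 over all genes. Called genes then made up 0.84% of 11305. The r of Hnf4a was 0.51, that of Gata6 0.51, of Pdx1 0.34 and of Gata4 0.12, and for Foxa2 and Foxa3 it was -0.20 and -0.04. The SD of the Hnf4g promoter level was 0.60 after the subtraction, at percentile 85.1, and that of Foxa1 was 0.45, at percentile 71.7. The regional level was computed from accessibility itself, and DNA copy number was not measured here.

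Among clones the promoters of the 8 genes did not move as 1 block. Of the 28 pairs, 17 had a positive r, and r ran from -0.64 for Hnf4a with Foxa1 to 0.50 for Foxa2 with Foxa3. Gata6 with Foxa2 had r of 0.49, Hnf4g with Foxa2 had -0.56 and Gata4 with Foxa1 had -0.47. These r are over 13 clones that share library depth across genes, and are descriptions. The promoters on other chromosomes most like each gene's own over the 13 clones were Intu, C1ql4 and Eefsec for Gata4 (r 0.88 to 0.89) and Gcnt1, Lrrc24 and Calr3 for Gata6 (0.90 to 0.91). They were Map3k8, Eif2ak2 and Gm26637 for Hnf4a (0.85 to 0.88), the last 2 of which share a peak, and Rbm11, Slc13a2 and Ncam2 for Hnf4g (0.84 to 0.88). For Foxa1 they were Fam83g, Olfr136 and Zfp575 (0.86 to 0.87), and for Foxa2 Osbp, Ppfibp1 and Fkbp4 (0.81 to 0.82). For Foxa3 they were Dnajc16, Slc27a1 and Ap1m1 (0.87 to 0.92), and for Pdx1 Zbed6 and Zc3h11a, which share a peak, and Adcy6 (0.85 to 0.86). These are the top 3 of 11325 to 12001 promoters compared per gene, and the values carry no test.

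Among 38 other pancreas and endoderm transcription factors, 22 had a tested promoter, of which 0 passed the adjusted test and 1, higher in T cell high, had an unadjusted p under 0.05 in edgeR, against 3.23% higher of all genes. The median log2 fold change was 0.07, against -0.00071 over all genes. The smallest p belonged to Cdx2 (log2 fold change 1.22, SE 0.52, adjusted p = 0.815 in edgeR), whose peak is the one described above. It was followed by Sox17, a factor of early endoderm, with 35.8 CPM on average in T cell high and 13.98 CPM in T cell low clones and a range of 1.1 to 88.5 CPM (log2 fold change 1.37, SE 0.69, unadjusted p = 0.060). Sox9, a duct progenitor factor, had 76.3 and 67.2 CPM (log2 fold change 0.23, SE 0.16). For distal sums 33 of these genes were tested, 0 passed, and 3 higher and 1 lower had an unadjusted p under 0.05, against 4.73% higher and 4.06% lower of all genes, with a median of 0.09.

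Among 40 effector genes of endoderm and classical pancreatic cancer, 14 had a tested promoter, of which 0 passed the adjusted test and 1, higher in T cell high, had an unadjusted p under 0.05 in edgeR, against 3.23% higher of all genes, with a median log2 fold change of 0.10. The smallest p belonged to Lgals4, a gut epithelial galectin, with 14.3 CPM in T cell high and 6.59 CPM in T cell low clones (log2 fold change 1.19, SE 0.55, adjusted p = 0.815 in edgeR). Apob, which encodes the main protein of lipoprotein particles, had 18.5 and 27.3 CPM (log2 fold change -0.50, SE 0.26, unadjusted p = 0.066). Tspan1, a tetraspanin of epithelial cells, had 6.96 and 4.04 CPM (log2 fold change 0.82, SE 0.60, unadjusted p = 0.181). For distal sums 36 effector genes were tested, 0 passed, 0 higher and 2 lower had an unadjusted p under 0.05, against 4.73% higher and 4.06% lower of all genes, and the median was -0.16 against 7.5e-05 over all genes.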

How the data were processed

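ATAC-seq libraries of 13 clones were analysed, 6 T cell high and 7 T cell low, each column matched to a sample title by clone name. Of the 15 samples in the labels, 2 of T cell intermediate phenotype were left out and not analysed here. The deposited values were raw read counts per merged peak, made by the authors with featureCounts 1.5.3 without options for read pairs or strand, per the file headers. The genome build was mm10, per the submitters' processing notes. Not given in the sources used here are the aligner, the caller and merging of peaks, and whether reads were shifted for the transposase offset. Both ends of a fragment can be counted, so reads are not independent molecules.

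Peaks were matched to genes and starts of GRCm38.p6 in RefSeq. Counts of peaks, of promoter peaks summed per gene and of distal peaks summed per gene were each fitted over all features with edgeR 4.0.16 in R 4.3.3 (filterByExpr by group, TMM, quasi-likelihood F-test, two-sided, Benjamini-Hochberg at 0.05). On simulated counts this procedure recovered 4% of 2-fold and 53% of 4-fold changes at peaks. It recovered 67% and 92% at promoter sums, and 54% and 95% at distal sums. At a single peak most 2-fold changes were thus missed. False calls were 1 at peaks, 10 at promoter sums and 6 at distal sums. Changes were planted in features drawn at random, with independent noise and no regional dosage. Planted changes ease the adjusted threshold, whereas the real fits called 0 peaks and 0 promoters. The rates are averages over features and need not hold for the 8 genes. The SE of the log2 fold change was 0.39 at the Gata4 and 0.41 at the Hnf4g promoter. CPM levels used the TMM factors of the fit over peaks, whereas each fit took its own factors. A log2 fold change of a promoter or distal sum can therefore differ from the ratio of the mean levels. The spread over clones used log2 CPM with a prior count of 2. Promoter and distal levels were related with 100000 permutations, two-sided. The labels do not say what the number before the c in a clone name stands for, and 6419c1 and 6419c5, and 6499c3 and 6499c4, share one. Each clone had 1 library, so the spread that the p-values measure mixes differences between clones with those between tumours and libraries. Clones that share a number were treated as independent in the main fits and in the permutations. The genes, lists and peaks to name were chosen with earlier results of these data known. Named by rule were, for each gene, the promoter peak with the highest mean, the distal peaks with the highest mean, the smallest p and the largest SD, the 3 most alike promoters, and the 3 genes of each list with the smallest p at promoters. Other peaks named, such as those at Neil2 and Cdx2, were chosen after their values were seen. Alternatives were DESeq2 1.42.0, RLE factors, no count filter, a regional offset, a sum of clones of 1 number in a group, other promoter windows and link distances, and leaving out each library.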

Additional observations from a re-analysis of the deposited data

Results flagged for a closer look

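Of 80 checks of a gene's or peak's levels within a group for a single clone far from the others, 6 stood out. For unselected values with a normal distribution chance gives about 1 in 20. The levels were checked as CPM without a log, and all 6 stood out on the high side. Peaks chosen for the smallest p or the largest SD over these same clones were also among those checked. The rate of 1 in 20 therefore need not hold here. At the Foxa2 promoter 6499c3 had 116.3 CPM, with the other T cell low clones at 61.6 to 83.9 CPM. At the Foxa3 promoter 6620c1 had 67.4 CPM, with the other T cell high clones at 32.7 to 44.9 CPM. The distal sum of Hnf4g was 81.4 CPM in 6419c5 and 11.9 to 40.1 CPM in the other T cell low clones. The Gata4 peak chr14:63232438-63233122 had 10.5 CPM in 6694c2 and 2.68 to 6.05 CPM in the other T cell low clones.

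The remaining 2 were at distal peaks of Hnf4a, both in 6419c5. The peak chr2:163590222-163591286 had 14.8 CPM there and 2.86 to 7.47 CPM in the other T cell low clones. The peak chr2:163580061-163580832 had 29.1 CPM there and 2.47 to 6.28 CPM in the other T cell low clones. Thus 3 of the 6 fell in 6419c5, a library of 1779170 counts, but the 2 Hnf4a peaks lie in the same region and are not independent checks.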

How the results depend on the processing

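No peak, promoter or distal sum of the 8 genes, and no gene of the other lists, passed an adjusted p of 0.05 under any alternative run. Counts at an unadjusted p under 0.05 moved from 3 of 83 member peaks to 6 of 82 with the clones of 1 number summed. With links within 20 kb the count was 1 of 54. Leaving out each library gave 1 to 7: 7 of 86 without 2838c3, 7 of 81 without 6419c5 and 1 of 87 without 6620c1. The shares of all tested features at that threshold under the alternatives are not reported here, so these counts have no background beside them. At the adjusted threshold, 42 of all 59478 tested peaks were called without 2838c3. For promoters the count went from 1 to 0 with the regional offset, with the clones of 1 number summed and without some libraries (0 to 1). For distal sums it went from 0 to 1 with DESeq2, RLE factors, no count filter, the regional offset, the summed clones or peaks at other genes' starts kept, and was 0 to 1 without single libraries. The 2 genes called by Pearson's r became 1 with Spearman's rho and 0 with the regional level subtracted or without the 2 farthest clones.

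Signs changed only for log2 fold changes and r without an adjusted call. With the regional offset the strongest distal peaks of Gata4, Hnf4g and Pdx1 came to -0.0603, -0.0836 and -0.0370, and the distal sums of Gata4 and Foxa2 to -0.0510 and -0.0697. With the clones of 1 number summed, the strongest distal peak of Gata4 was -0.0909, its distal sum -0.0438, the Foxa1 promoter peak -0.0887, the most variable Foxa2 distal peak 0.0231 and the Hnf4g promoter log2 fold change 0.00496. The Foxa1 promoter peak was -0.00447 with DESeq2 and -0.00937 with RLE factors. With links within 20 kb the distal sums of Foxa2 and Foxa3 were -0.0190 and -0.00238. The r of Foxa2 and Foxa3 was -0.196 and -0.0387 with the regional level subtracted, and that of Gata4 and Pdx1 -0.172 and -0.0289 without the 2 farthest clones.

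Leaving out each library gave ranges that crossed 0. For promoter sums these were -0.292 to 0.0380 (Gata6), -0.436 to 0.0649 (Hnf4g), -0.0485 to 0.270 (Foxa1) and -0.342 to 0.0136 (Foxa3). For distal sums they were -0.0556 to 0.105 (Gata4), -0.189 to 0.0492 (Gata6), -0.00158 to 0.420 (Foxa1), -0.0844 to 0.147 (Foxa2) and -0.0267 to 0.0933 (Foxa3). For the strongest distal peaks they were -0.0977 to 0.121 (Gata4), -0.0748 to 0.144 (Hnf4a), -0.0634 to 0.431 (Hnf4g) and -0.0345 to 0.274 (Foxa2), and for the Foxa1 promoter peak -0.143 to 0.194. For the most variable distal peaks they were -0.0148 to 0.785 (Gata4), -0.388 to 0.143 (Gata6), -0.742 to 0.137 (Foxa1) and -0.482 to 0.0698 (Foxa2). The causes were not tested. No paired analysis was possible because the replicate numbers follow accession order, and only 1 clone number, that of 6499c4 and 6499c3, occurs in both groups. Shallow libraries limit the weak peaks: the Gata4 peak at the record end, taken as its promoter, rested on 4 reads in 7160c2.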
